A study of Mus musculus with 6 samples.

Results

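The genes described here encode the machinery that brings proteins into mitochondria and looks after them once they are inside. They were chosen by name: every gene whose symbol is Tomm or Timm followed by a number, and 15 listed genes for the import motor, the matrix chaperonin, the processing peptidase, 5 protease genes and the prohibitins. This gave 42 genes, set beside 20145 genes named on the array. Of these, 40 had a probe and 38 were bright enough to test. Tomm6os and Timm29-ps1 had no named probe. Tomm20l was not well above background on any of the 6 arrays and Timm8a2 on 1 control array and 0 icKO arrays, so neither was tested.

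Messenger RNA was measured in heart ventricle of male C57bl/6j mice, 11 to 12 weeks old, with 1 one-colour Agilent array per mouse. The study asked what Tead1, a DNA-binding transcription factor of the Hippo pathway, does in the adult heart. The 3 control mice carried floxed Tead1, and the 3 inducible knockout (icKO) mice were Tead1F/F; Myh6-CreER, in which a tamoxifen-activated Cre recombinase is made from the cardiomyocyte promoter Myh6. Both groups were given tamoxifen, and the labels call the samples of a group biological replicates. No Cre is named for the control mice, and an effect of the active Cre and one of losing Tead1 cannot be told apart. The Myh6 promoter is active in cardiomyocytes and not in the other cells of the ventricle.

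Most mitochondrial proteins are made in the cytosol as precursors. They cross the outer membrane through the translocase of the outer membrane (TOM) and are then sorted. Precursors with a cleavable presequence pass the inner membrane through the TIM23 complex, pulled by an ATP-driven motor, while metabolite carriers are escorted by small TIM chaperones to the TIM22 complex. In the matrix the presequence is cut off, chaperonin folds the protein, and AAA+ proteases remove what is damaged or in excess. The heart is rich in mitochondria, and inherited defects in several of these genes, DNAJC19 among them, cause cardiomyopathy.

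Promoter sequences of these genes were searched for short letter motifs of known transcription factors. RefSeq promoter windows of GRCm38.p6, 250 bases before to 50 bases after the start, were found for 32 of the 38 tested members. Both strands were searched for 7 motifs, spelled GCATGCGC (NRF1 core), CCGGAAG (ETS family, GABPA), TCAAGGTCA (oestrogen-related receptors, ERR), GGAATG (TEAD), AAGATGG (YY1), TGATGNAA (CHOP and ATF4) and GAANNTTC (heat shock factor, HSF). Below, the matches are in capitals within the 250 bases before the start, or within the stretch between the 2 starts for the first pair, and each sequence is on the strand named. Hspd1 and Hspe1 are shown because they are transcribed away from each other from starts 215 bases apart, so that their 300-base windows overlap by 285 bases. Grpel1, Timm8b and Phb2 are shown for the different matches they hold, Tomm5 as the member with the largest difference between groups, and Lonp1 as the member called higher.
Hspd1-Hspe1, chr1:55087933-55088147, plus strand: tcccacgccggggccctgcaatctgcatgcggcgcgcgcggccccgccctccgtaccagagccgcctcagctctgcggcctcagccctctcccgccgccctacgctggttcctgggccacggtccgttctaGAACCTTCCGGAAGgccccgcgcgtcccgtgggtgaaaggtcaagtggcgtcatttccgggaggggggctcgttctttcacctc
Grpel1, chr5:36464935-36465184, plus strand: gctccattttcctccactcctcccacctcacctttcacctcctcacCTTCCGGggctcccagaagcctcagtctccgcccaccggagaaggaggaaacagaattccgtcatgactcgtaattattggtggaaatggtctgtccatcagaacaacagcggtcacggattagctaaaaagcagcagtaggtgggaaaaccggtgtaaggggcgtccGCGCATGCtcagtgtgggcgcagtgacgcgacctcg
Timm8b, chr9:50603651-50603900, plus strand: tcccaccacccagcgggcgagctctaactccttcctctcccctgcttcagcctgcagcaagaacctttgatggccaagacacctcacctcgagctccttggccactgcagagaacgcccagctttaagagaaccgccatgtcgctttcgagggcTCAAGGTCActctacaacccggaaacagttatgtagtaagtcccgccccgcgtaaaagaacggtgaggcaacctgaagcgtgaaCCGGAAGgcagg
Phb2, chr6:124712039-124712288, plus strand: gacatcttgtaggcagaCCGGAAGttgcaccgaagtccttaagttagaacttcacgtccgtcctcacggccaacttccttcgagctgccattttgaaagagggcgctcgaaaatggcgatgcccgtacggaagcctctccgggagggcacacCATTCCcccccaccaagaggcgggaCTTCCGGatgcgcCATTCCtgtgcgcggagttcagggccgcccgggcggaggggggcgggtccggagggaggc
Tomm5, chr4:45108114-45108363, minus strand: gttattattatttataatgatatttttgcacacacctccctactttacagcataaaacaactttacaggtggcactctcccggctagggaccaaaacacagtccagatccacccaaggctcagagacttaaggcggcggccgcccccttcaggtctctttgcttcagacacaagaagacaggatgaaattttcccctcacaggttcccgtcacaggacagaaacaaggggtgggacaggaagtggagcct
Lonp1, chr17:56626904-56627153, minus strand: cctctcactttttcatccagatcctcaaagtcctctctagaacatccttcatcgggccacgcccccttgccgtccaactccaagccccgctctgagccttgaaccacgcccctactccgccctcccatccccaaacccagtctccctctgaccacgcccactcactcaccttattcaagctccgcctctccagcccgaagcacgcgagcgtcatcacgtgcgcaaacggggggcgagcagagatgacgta

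The ETS letters stood in 15 of 32 member promoters (46.9%). They stood in 9.93% of 27025 genes with a promoter window and in 18.5% of the 10313 such genes tested on the arrays. Among the 24 of these members that are called lower below, 11 held them. In the stretch shared by Hspd1 and Hspe1 the ETS letters lie on both strands over each other, counted as 2 matches, and the HSF match overlaps them. Both genes were counted for this shared stretch, in the ETS counts of 15 and 11 and in the HSF count below. Phb2 held 3 ETS matches in its window, 2 of them in the stretch printed. NRF1 letters stood in 3 member promoters (9.38%), those of Clpx, Grpel1 and Timm13, against 3.05% of all genes and 5.58% of those tested. The ERR letters stood in 1, that of Timm8b (3.12%, against 0.466% and 0.349%). TEAD letters stood in 5 (15.6%), those of Clpx, Phb2, Timm10, Timm23 and Timm29, against 16.6% and 15.0%. YY1 letters stood in 3 promoters (9.38%), against 7.28% of all genes and 8.15% of those tested. HSF letters stood in 3 (9.38%), against 9.04% of all genes and a smaller share of those tested. These were the promoters of Timm9, Hspd1 and Hspe1, and the last pair hold the same match. The CHOP and ATF4 letters stood in 0 of 32, against 4.51% and 2.82%. The printed stretches of Tomm5 and Lonp1 held none of the 7. A match is a description of letters and not a binding site, and the shares are given without a test.

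Transcripts of the import and quality control machinery were lower in icKO ventricles at nearly every step of the pathway, with 1 protease gene higher. Levels are given on a log2 scale, relative to the signal below which 75% of an array's spots lie, so a difference is relative to the other spots of the same array. A gene is called when its Benjamini-Hochberg adjusted p, from a limma fit over all 22282 features, is under 0.05. By this rule 29 of 38 members were lower (76.3%), 1 was higher and 8 were not called. Over all features, 28.7% were lower and 16.0% higher. The median difference was -0.54 for the members and -0.14 for all features. On 33 members every icKO array lay below every control array (86.8%, against 37.7% of all features) and on 1 every icKO array lay above (against 21.6%). The counts depend on how arrays are scaled to each other: scaling on the array median adds 0.16 to every difference and scaling on Agilent's spike-in control RNA adds 0.42, which moves the median of all features to 0.02 and 0.28. With quantile normalization 24 members were called lower and 1 higher (22.6% and 19.1% of features). With median scaling 18 members were called lower and 1 higher (16.4% and 19.7% of features). With spike-in scaling 9 were lower and 2 higher (7.65% and 30.0% of features), and the members' median was -0.12. In bulk tissue, fewer cells of a type and less RNA per cell cannot be told apart.

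**Figure D1:**
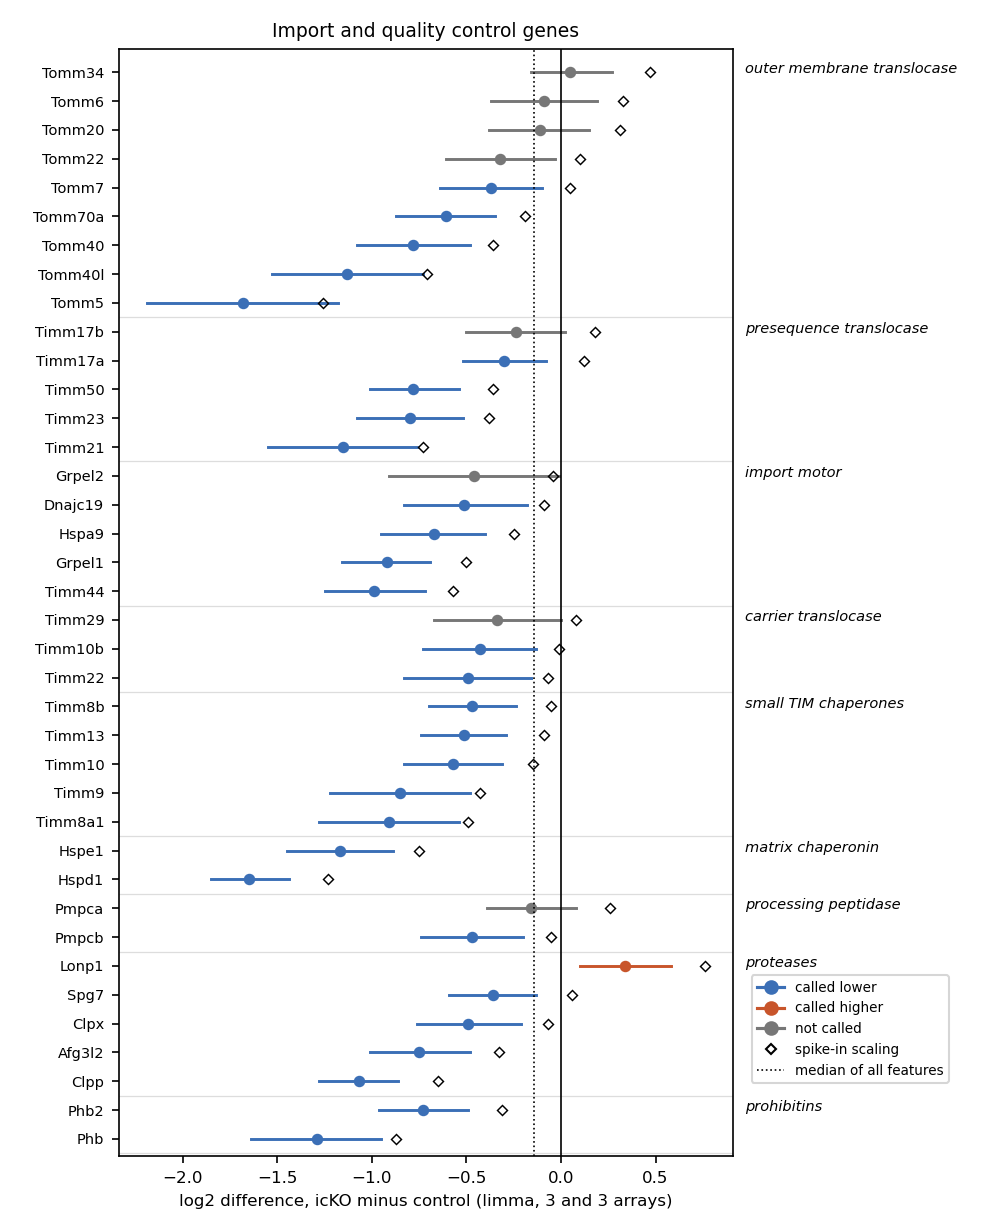
Difference between icKO and control in each of the 38 tested members, grouped by role, on a log2 scale, with 3 and 3 arrays. Points are limma differences with 95% confidence intervals (75th percentile scaling), open diamonds are the same differences with spike-in scaling, and the dotted line is the median of all features, -0.14. Nearly all points lie left of the line, with Tomm5 and Hspd1 farthest, and Lonp1 lies to the right. With spike-in scaling the called genes Tomm7, Timm17a and Spg7 move to the right of 0, as do Tomm20, Tomm22, Tomm6, Timm17b, Timm29 and Pmpca, which were not called.

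The 6 arrays split by genotype as a whole, and other gene lists moved with the same split. The targeted gene itself, Tead1, read 4.01, 3.79 and 3.96 in controls and 3.66, 3.44 and 3.46 in icKO, a difference of -0.40 ± 0.11 (SE, limma, Benjamini-Hochberg adjusted p = 0.0300) that was 0.02 with spike-in scaling. Leaving out control replicate 1 (-0.35) or 3 (-0.38) or icKO replicate 2 (-0.36) or 3 (-0.37) ended its call. Where its probe lies relative to the deleted part is not known here. Of 12 cardiomyocyte marker genes 10 were lower, and their mean level ran from 8.86 to 8.99 in controls and from 8.13 to 8.28 in icKO. Macrophage markers were higher in 11 of 12 (mean level 0.74 to 1.39 in controls, 2.25 to 2.80 in icKO) and fibroblast markers in 8 of 11, with 1 lower (2.33 to 3.13, then 3.77 to 4.13). Endothelial markers were lower in 3 and higher in 1 of 10 (3.37 to 3.50, then 3.16 to 3.61). Smooth muscle and pericyte markers were lower in 2 and higher in 2 of 8 (1.59 to 2.03, then 1.64 to 2.06), erythrocyte markers higher in 3 of 5 (6.70 to 7.46, then 7.57 to 8.90), and both T cell markers tested were lower (0.55 to 0.86, then 0.15 to 0.21). The part of these shifts in the members' differences was not tested. Among the cardiomyocyte markers, Ckm, muscle creatine kinase, differed by -2.37, Tnni3, cardiac troponin I, by -1.03, Actn2 by 0.10 and Ryr2 by 0.05, the last pair not called. With median scaling 7 of the 12 cardiomyocyte markers were lower and with spike-in scaling 3, beside 16.4% and 7.65% of all features.

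**Figure D2:**
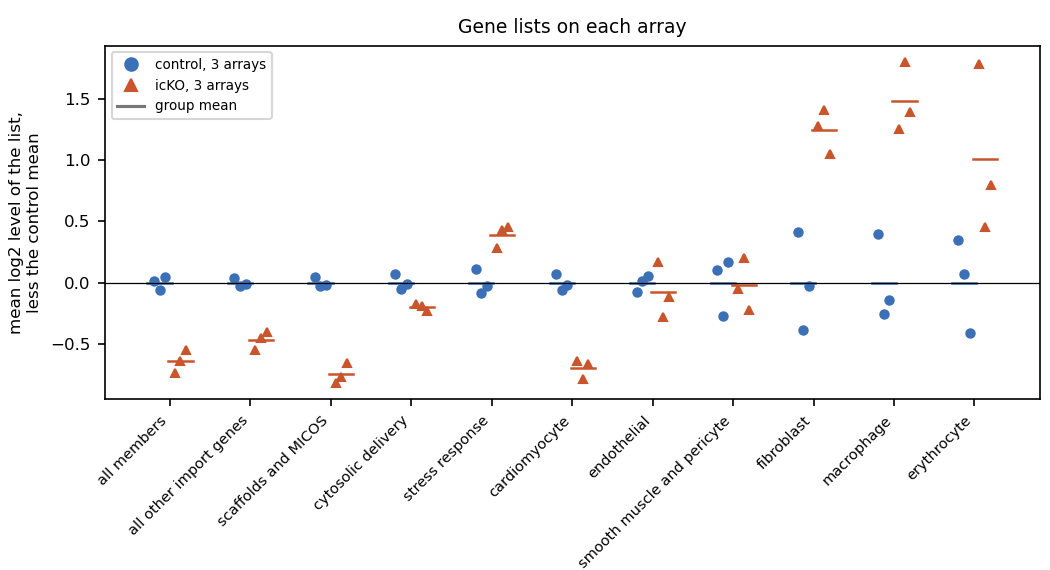
Mean log2 level of each gene list on each array, less the control mean, so that 0 is the mean of the 3 control arrays. Circles are control arrays, triangles icKO arrays and bars the group means. The members, the other import genes and the cardiomyocyte markers lie below 0 on all 3 icKO arrays, and the fibroblast and macrophage markers above it. The other import genes include the cytosolic delivery and stress response lists, which are also shown singly.

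At the outer membrane, the channel genes Tomm40 and Tomm40l, the receptor Tomm70a and the small subunits Tomm5 and Tomm7 were lower, while Tomm20, Tomm22, Tomm6 and Tomm34 were not called. Of 9 Tomm genes tested, 5 were lower and 0 higher. The largest difference of all members was that of Tomm5, a small subunit of the TOM core. Tomm5 read 7.16, 6.86 and 7.15 in controls and 4.93, 5.67 and 5.51 in icKO. All icKO arrays lay far below the controls, and icKO replicate 1 was the lowest. The difference was -1.68 ± 0.21 (SE over 3 and 3 arrays, limma with Benjamini-Hochberg adjusted p = 0.00171), which is 31.1% of the control level.

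The pore itself is formed by TOM40. Tomm40 read 4.08, 3.98 and 4.14 in controls and 3.09, 3.31 and 3.47 in icKO, a difference of -0.78 ± 0.12 (limma adjusted p = 0.00416). Its paralogue Tomm40l read 2.28, 2.12 and 2.34 in controls and 0.77, 1.29 and 1.29 in icKO, a difference of -1.13 ± 0.17 (adjusted p = 0.00312). In both the groups were clearly apart, and icKO replicate 1 was the lowest array. Tomm70a, the receptor for carrier precursors and a docking site for cytosolic chaperones, read 2.01, 2.10 and 2.19 in controls and 1.36, 1.50 and 1.62 in icKO. It differed by -0.61 ± 0.11 (adjusted p = 0.00607), with no overlap of the groups.

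Neither receptor for presequences was called. Tomm20, the presequence receptor, read 2.70, 2.68 and 2.68 in controls and 2.75, 2.44 and 2.53 in icKO. The groups overlapped, and the difference of -0.11 ± 0.11 was not called (95% interval -0.38 to 0.15). A dimmer Tomm20 probe differed by -0.30, reading 2.10, 2.09 and 1.73 in controls and 1.70, 1.62 and 1.71 in icKO, without overlap. With the mean of its probes Tomm20 was -0.20 and was not called (limma, Benjamini-Hochberg adjusted p = 0.160). Tomm22, the central receptor and organiser of the complex, read 4.62, 4.48 and 4.59 in controls and 4.05, 4.27 and 4.41 in icKO. Its icKO arrays all lay below the controls, but the difference of -0.32 ± 0.12 missed the threshold (limma, Benjamini-Hochberg adjusted p = 0.0698). It passed when the variance was moderated robustly with an intensity trend (adjusted p = 0.0315).

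Besides Tomm5, small subunits that stabilise the complex are encoded by Tomm7 and Tomm6. Tomm7 read 6.85, 6.64 and 6.70 in controls and 6.30, 6.52 and 6.28 in icKO. It differed by -0.37 ± 0.11 (limma, Benjamini-Hochberg adjusted p = 0.0379), with the groups close but not overlapping, and was 0.05 with spike-in scaling. Its call was lost without control replicate 1 (-0.31), 2 (-0.41) or 3 (-0.38) and without icKO replicate 1 (-0.33) or 3 (-0.32). Tomm6 read 5.37, 5.12 and 5.29 in controls and 5.02, 5.26 and 5.23 in icKO, and its difference of -0.09 ± 0.12 was not called (95% interval -0.37 to 0.19). Tomm34, a cytosolic partner of the import receptors and of the Hsp70 and Hsp90 chaperones, read 2.98, 2.88 and 2.97 in controls and 2.94, 3.05 and 3.01 in icKO. The arrays of both groups were interleaved for Tomm6 and for Tomm34. The Tomm34 difference of 0.05 ± 0.09 was not called, and it was 0.47 with spike-in scaling, which passed (adjusted p = 0.0406).

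**Figure D3:**
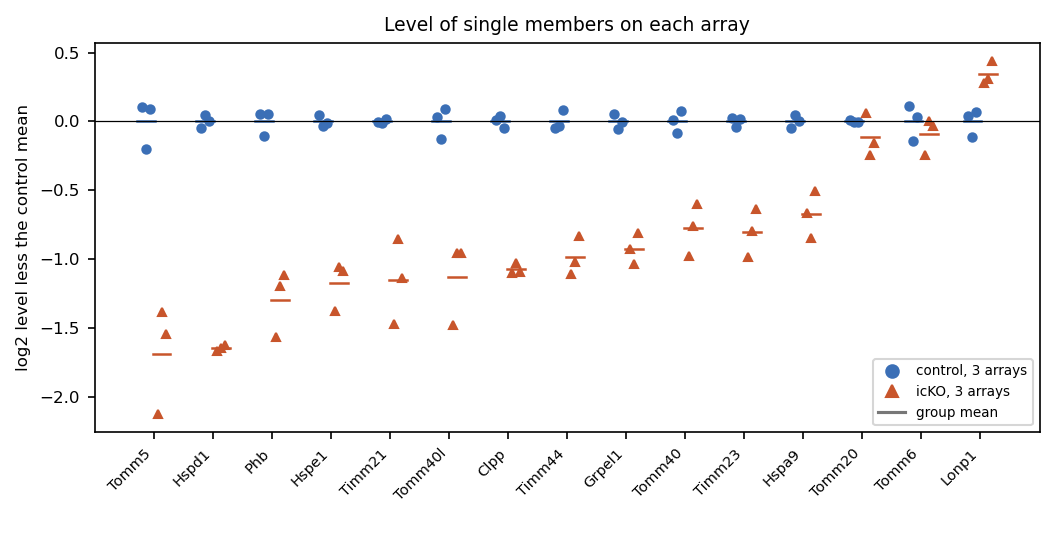
Log2 level of 15 members on each of the 6 arrays, less the mean of the 3 control arrays. Circles are control arrays, triangles icKO arrays and bars group means. Tomm5 and Hspd1 are lowest in icKO, Tomm20 and Tomm6 overlap between the groups, and the 3 icKO arrays of Lonp1 lie above its controls.

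The presequence translocase of the inner membrane (TIM23 complex) was lower in 4 of its 5 genes. Timm23, a core channel subunit, read 6.46, 6.39 and 6.45 in controls and 5.45, 5.64 and 5.80 in icKO, a difference of -0.80 ± 0.12 (limma, Benjamini-Hochberg adjusted p = 0.00281). Timm50, the receptor that takes presequences over from the outer membrane, read 3.22, 3.02 and 3.21 in controls and 2.37, 2.33 and 2.42 in icKO, a difference of -0.78 ± 0.10 (adjusted p = 0.00178). Timm21, which tethers the complex to TOM and to assembling respiratory chain subunits, read 2.11, 2.10 and 2.13 in controls and 0.64, 1.26 and 0.98 in icKO. Its difference was -1.15 ± 0.16 (adjusted p = 0.00272), with tight controls and more spread in icKO. None of these 3 genes overlapped between groups.

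Vertebrates have paired versions of the other channel subunit, Timm17a and Timm17b. Timm17a, known as the stress-sensitive and short-lived version, read 6.43, 6.44 and 6.39 in controls and 6.17, 6.02 and 6.17 in icKO. It differed by -0.30 ± 0.09 (limma, Benjamini-Hochberg adjusted p = 0.0366), and was 0.12 with spike-in scaling. The call was lost without control replicate 1 (-0.30), 2 (-0.29) or 3 (-0.32) and without icKO replicate 2 (-0.25) or 3 (-0.33). Timm17b read 4.39, 4.26 and 4.31 in controls and 3.93, 4.11 and 4.20 in icKO, all icKO arrays below the controls. Its difference of -0.24 ± 0.11 was not called (adjusted p = 0.112, 95% interval -0.50 to 0.02).

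The import motor was lower in 4 of 5 genes, and in 2 of these, Timm44 and Grpel1, the call held under every scaling tried. Timm44, the scaffold that holds the motor at the channel, read 4.76, 4.78 and 4.89 in controls and 3.70, 3.79 and 3.98 in icKO, a difference of -0.99 ± 0.11 (limma, Benjamini-Hochberg adjusted p = 0.00117). Grpel1, the nucleotide exchange factor of the motor's Hsp70, read 5.80, 5.69 and 5.74 in controls and 4.82, 4.71 and 4.93 in icKO, a difference of -0.92 ± 0.10 (adjusted p = 0.00105). Timm44 stood at 50.4% and Grpel1 at 52.7% of the control level, with no overlap. Hspa9, the mitochondrial Hsp70 itself (mortalin), read 6.20, 6.29 and 6.25 in controls and 5.58, 5.40 and 5.74 in icKO, with no overlap and a difference of -0.67 ± 0.11 (adjusted p = 0.00511). With spike-in scaling the Hspa9 difference was -0.25 and was not called (adjusted p = 0.337).

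Dnajc19, the J-protein of the motor and a cardiomyopathy gene in humans, read 3.96, 3.83 and 3.83 in controls and 3.24, 3.24 and 3.63 in icKO. The array of icKO replicate 3 came near the controls without reaching them. The difference of -0.51 ± 0.14 passed (limma, Benjamini-Hochberg adjusted p = 0.0243), but not without control replicate 1 (-0.46), 2 (-0.53) or 3 (-0.53), nor without icKO replicate 1 (-0.44) or 2 (-0.44). Dnajc19 was not called with median scaling (-0.35) or spike-in scaling (-0.09) either. Grpel2, the stress-related paralogue of Grpel1, read -0.12, 0.06 and 0.52 in controls and -0.20, -0.49 and -0.24 in icKO. The groups lay side by side with 1 high control, and the difference of -0.46 ± 0.19 was not called (adjusted p = 0.0868). With the mean of its probes it was -0.56 and passed (adjusted p = 0.0478).

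The carrier translocase of the inner membrane, the TIM22 complex, was lower in 2 of its 3 genes. The channel gene Timm22 differed by -0.49 ± 0.14 (limma, Benjamini-Hochberg adjusted p = 0.0287) and its peripheral small TIM Timm10b by -0.43 ± 0.12 (adjusted p = 0.0303), while the subunit Timm29 differed by -0.34 ± 0.14 and was not called (adjusted p = 0.0896). Timm22 read 3.60, 3.46 and 3.64 in controls and 2.81, 3.18 and 3.22 in icKO, with no overlap. Timm10b read 5.63, 5.35 and 5.57 in controls and 4.96, 5.23 and 5.07 in icKO, close but not overlapping. The Timm22 call was lost without control replicate 1 (-0.48), 2 (-0.55) or 3 (-0.46). That of Timm10b was lost without control replicate 1 (-0.37) or 3 (-0.40) and without icKO replicate 1 (-0.37) or 3 (-0.42). Neither was called with median scaling (-0.34 and -0.27) or with spike-in scaling (-0.07 and -0.01).

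The small TIM chaperones, which carry hydrophobic precursors across the intermembrane space as hexamers, were lower in 5 of the 5 genes tested. Timm8a1, whose human counterpart is lost in deafness-dystonia syndrome, read 3.34, 3.41 and 3.59 in controls and 2.25, 2.63 and 2.73 in icKO, a difference of -0.91 ± 0.15 (limma, Benjamini-Hochberg adjusted p = 0.00496). Its relative Timm8b read 7.16, 7.15 and 7.06 in controls and 6.59, 6.60 and 6.76 in icKO, a difference of -0.47 ± 0.10 (adjusted p = 0.00959). The groups of both were apart on every array.

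Timm9 and Timm10 form the main hexamer. Timm9 read 1.86, 1.85 and 2.11 in controls and 0.85, 1.08 and 1.35 in icKO, a difference of -0.85 ± 0.15. Timm10 read 6.02, 5.80 and 6.01 in controls and 5.26, 5.42 and 5.42 in icKO, a difference of -0.57 ± 0.11. Timm13, the partner of the TIMM8 proteins, read 5.78, 5.66 and 5.78 in controls and 5.14, 5.26 and 5.27 in icKO, a difference of -0.51 ± 0.09. These 3 were also called without overlap (limma, Benjamini-Hochberg adjusted p from 0.00634 to 0.00742). With spike-in scaling 0 of the 5 small TIM genes were called, with a median of -0.15.

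Both genes of the matrix chaperonin were lower, and Hspd1 had the smallest adjusted p of the 38 members. Hspd1, which encodes the HSP60 barrel in which imported proteins fold, read 5.99, 6.08 and 6.04 in controls and 4.37, 4.39 and 4.41 in icKO. The arrays of a group lay close together (SD 0.05 in controls and 0.02 in icKO) and the groups far apart. The difference was -1.65 ± 0.08 (limma, Benjamini-Hochberg adjusted p = 0.000149), which is 32.0% of the control level. Hspe1, the HSP10 lid of the barrel, read 5.89, 5.81 and 5.83 in controls and 4.47, 4.79 and 4.76 in icKO, a difference of -1.17 ± 0.12 (adjusted p = 0.000797) and 44.4% of the control level. These are the 2 genes of the divergent promoter printed above, and both calls held with spike-in scaling.

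The 2 subunits of the presequence processing peptidase differed in outcome. Pmpcb, the catalytic subunit, read 5.50, 5.30 and 5.52 in controls and 4.88, 4.92 and 5.09 in icKO, a difference of -0.47 ± 0.11 (limma, Benjamini-Hochberg adjusted p = 0.0161). The call was lost without control replicate 1 (-0.44) or 3 (-0.43) or icKO replicate 2 (-0.45), and with normexp background correction it was -0.27 and missed the threshold. Pmpca, the subunit that recognises the presequence, read 2.63, 2.77 and 2.72 in controls and 2.52, 2.48 and 2.65 in icKO. Its groups overlapped by 1 icKO array, and the difference of -0.16 ± 0.10 was not called (95% interval -0.39 to 0.08).

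Of the 5 protease genes, 4 were lower and 1 was higher. Clpp, the proteolytic barrel of the matrix ClpXP protease, read 2.90, 2.93 and 2.84 in controls and 1.79, 1.86 and 1.80 in icKO. The spread within each group was small beside the gap, and the difference was -1.07 ± 0.09 (limma, Benjamini-Hochberg adjusted p = 0.000437). Clpx, the unfoldase that feeds it, read 3.45, 3.43 and 3.33 in controls and 3.11, 2.84 and 2.81 in icKO, a difference of -0.49 ± 0.12 (adjusted p = 0.0162). Its call was lost without control replicate 1 (-0.46) or 2 (-0.47) and without icKO replicate 2 (-0.44) or 3 (-0.43).

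Lonp1, the other soluble protease of the matrix and a regulator of mitochondrial DNA maintenance, was the only member called higher with this scaling. Lonp1 read 5.78, 5.63 and 5.81 in controls and 6.02, 6.05 and 6.18 in icKO. All 3 icKO arrays lay above all controls, and the difference was 0.34 ± 0.10 (limma, Benjamini-Hochberg adjusted p = 0.0328), 127% of the control level. Median scaling gave 0.50 and spike-in scaling 0.76. Both add a positive amount to every difference, so a positive value could not turn. The call is close to the threshold. It was lost without control replicate 1 (0.36), 2 (0.29) or 3 (0.38), without icKO replicate 2 (0.36) or 3 (0.30), with the slide row as a term (0.36) and when dim probes were not filtered out (adjusted p = 0.139).

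The m-AAA protease of the inner membrane, which removes damaged membrane proteins and matures ribosomal components, was lower in both subunit genes among the members. Afg3l2 read 3.03, 2.89 and 3.06 in controls and 2.17, 2.16 and 2.40 in icKO, a difference of -0.75 ± 0.11 (limma, Benjamini-Hochberg adjusted p = 0.00302). Spg7, paraplegin, read 5.77, 5.90 and 5.76 in controls and 5.43, 5.38 and 5.53 in icKO, a difference of -0.36 ± 0.10 (adjusted p = 0.0226) that was 0.06 with spike-in scaling. Both were free of overlap. The Spg7 call was lost without control replicate 2 (-0.32) or 3 (-0.39) or icKO replicate 2 (-0.33). Afg3l1, a relative of Afg3l2 outside the members, differed by -0.12 and was not called (limma, Benjamini-Hochberg adjusted p = 0.344). With the mean of its probes Afg3l1 was -0.41 and passed (adjusted p = 0.0150).

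The prohibitins form ring scaffolds in the inner membrane that hold the m-AAA protease. Phb read 5.26, 5.10 and 5.26 in controls and 3.64, 4.01 and 4.09 in icKO, a difference of -1.29 ± 0.14 (limma, Benjamini-Hochberg adjusted p = 0.00113) and 40.8% of the control level. Phb2 read 5.11, 5.17 and 5.09 in controls and 4.50, 4.29 and 4.39 in icKO, a difference of -0.73 ± 0.10 (adjusted p = 0.00214) and 60.4% of the control level. Neither gene overlapped between the groups, and icKO replicate 1 was the lowest array for Phb but the highest icKO array for Phb2.

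Whether paralogues and partners moved by the same amount was asked within each array. There, a scaling that adds the same amount to all genes of an array cancels. Quantile normalization does not cancel, and the pairs were not tried with it. For each of 13 pairs with both genes measured, the log2 level of one gene less that of the other was compared between groups. In 10 of the 13 pairs the groups did not overlap, with an exact two-sided permutation p of 0.10, the smallest that 3 against 3 arrays allow (Benjamini-Hochberg adjusted over the 13 pairs, 0.13), so no pair could pass 0.05. For single features the groups were apart in 37.7% of cases downwards and 21.6% upwards. The ratio was lower on every icKO array within the ClpXP protease and within the prohibitins. The Clpp level relative to Clpx was -0.80, -0.46 and -0.49 on the icKO arrays, taking the control mean as 0, against -0.03, 0.01 and 0.02 on the controls, a mean difference of -0.59. Phb relative to Phb2 was -0.94, -0.37 and -0.39 in icKO and 0.06, -0.15 and 0.09 in controls (mean -0.57). In both, icKO replicate 1 was the lowest array.

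Among the other ratios, Hspd1 differed from Hspe1 by -0.47, Afg3l2 from Spg7 by -0.38 and Timm8a1 from Timm8b by -0.44. Grpel1 relative to Grpel2 differed by -0.46, but its highest icKO value, -0.39, lay just under its lowest control value, -0.37. Ratios were higher in icKO for Tomm40 over Tomm40l (0.35), Pmpca over Pmpcb (0.32) and Dnajc19 over Dnajc15 (0.31), the last another J-protein of the motor. Dnajc15 itself read 6.64, 6.48 and 6.56 in controls and 5.63, 5.72 and 5.87 in icKO, lower on every icKO array. Timm10 over Timm10b differed by -0.14. The 3 pairs with overlap were Timm17a and Timm17b (-0.06), Timm8b and Timm13 (0.04) and Timm9 and Timm10 (-0.28). A further 4 pairs were picked after their values were seen and carry no test: Tomm5 over Tomm6 (-1.59), Tomm5 over Tomm7 (-1.32), Lonp1 over Clpp (1.41) and Lonp1 over Hspa9 (1.01). In each of these the 3 icKO arrays lay outside the range of the controls.

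**Figure D4:**
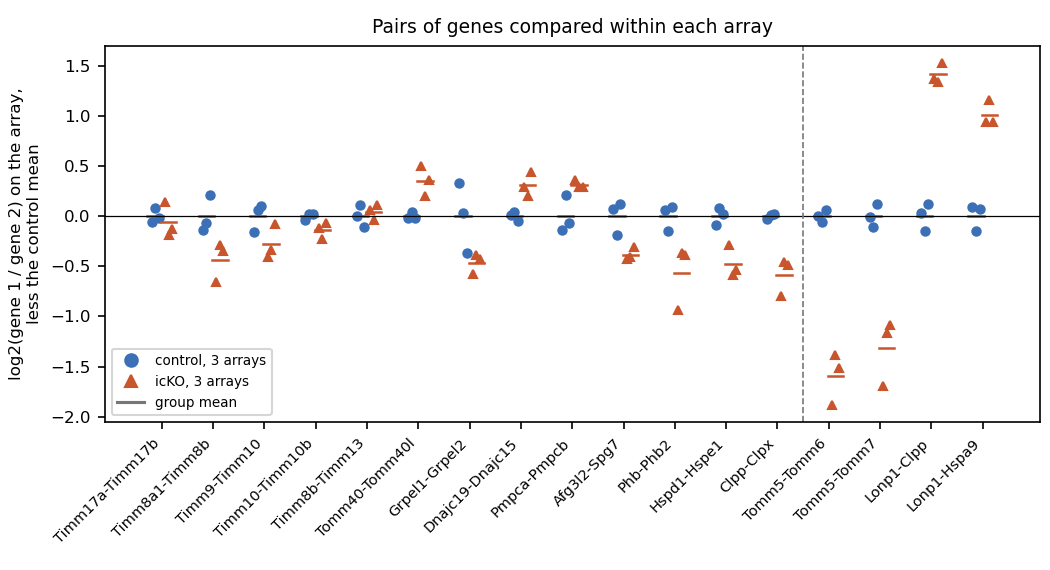
Log2 ratio of the first to the second gene of each pair on each array, less the mean of the 3 controls. A scaling that adds the same amount to all genes of an array leaves the ratio unchanged. Circles are control arrays, triangles icKO arrays and bars group means, and the 4 pairs right of the dashed line were picked after their values were seen. Ratios of Clpp to Clpx and of Phb to Phb2 are lower in icKO, and that of Lonp1 to Clpp is higher by 1.41.

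Other genes of the same pathways, outside the chosen set, were lower in 43 and higher in 6 of 58 tested, beside the 28.7% and 16.0% of all features. With spike-in scaling these counts were 9 and 7. The 58 include 9 cytosolic delivery genes (4 lower, 1 higher) and 9 stress response genes (2 lower, 5 higher), described below. All 6 higher genes were in these lists. Scaffold and cristae-organising (MICOS) genes were lower in 8 of 8, among them Apoo (-0.99) and Apool (-0.88). The remaining matrix chaperones were lower in 5 of 5, including Tcaim (-1.20) and Dnaja3 (-1.23), the J-protein partner of Hspa9. The remaining presequence and intermediate peptidases were lower in 5 of 5, with Mipep (-0.93) and Immp2l (-0.88). Of the remaining proteases 6 of 7 were lower, with Oma1 (-1.27), a stress-activated inner-membrane protease, and Atp23 (-1.60). With normexp background correction the Atp23 difference was -0.87. The disulfide relay of the intermembrane space, on which the small TIM proteins depend for folding, was lower in 3 of 3, with Aifm1 (-1.02) and Gfer (-0.98). Insertase and other import factors were lower in 7 of 8, with Dnajc15 (-0.82) and Pam16 (-0.78), the regulator of the motor's J-protein. The sorting and assembly machinery of the outer membrane was lower in 3 of 4, with Mtx2 (-0.69) and Samm50 (-0.55). All genes named in this paragraph passed limma's test with Benjamini-Hochberg adjusted p from 0.000561 to 0.00617. Of those named, Apool, Immp2l, Dnajc15, Pam16, Mtx2 and Samm50 were not called with spike-in scaling.

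The cytosolic delivery factors were lower in 4 and higher in 1 of 9. Hsp90ab1, which hands precursors to Tomm70a, differed by -0.46 and Atad1, which extracts misplaced proteins from the outer membrane, by -0.49 (limma, Benjamini-Hochberg adjusted p = 0.00749 and 0.00966), but neither was called with median scaling (-0.30 and -0.33). Ubqln1, an escort of membrane precursors, was higher by 0.34 (adjusted p = 0.0490), a call that was lost on leaving out any array: control replicate 1 (0.40), 2 (0.29) or 3 (0.34) or icKO replicate 1 (0.27), 2 (0.40) or 3 (0.36). In the stress response list 5 of 9 genes were higher and 2 lower.

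This list holds transcription factors, signalling genes and effectors of the integrated and mitochondrial stress responses. Trib3 read 1.04, 0.45 and 0.81 in controls and 1.99, 2.02 and 2.07 in icKO, a difference of 1.26 ± 0.16 (limma, Benjamini-Hochberg adjusted p = 0.00179). Atf4, the central transcription factor of the integrated stress response, read 5.65, 5.62 and 5.82 in controls and 6.56, 6.39 and 6.66 in icKO, a difference of 0.84 ± 0.11 (adjusted p = 0.00231). The other 3 higher genes, named after their values were seen, were Ddit3 (0.89), Chac1 (1.67) and Atf5 (0.74). Chac1 ran from 1.30 to 1.95 on leaving out an array, and the Atf5 call was lost without icKO replicate 3 (0.71). Dele1, which relays mitochondrial stress to the cytosol, differed by -1.16 ± 0.09 (adjusted p = 0.000385) and Hsf1, the heat shock factor, by -0.70 ± 0.14 (adjusted p = 0.00929), the latter not called with median (-0.55) or spike-in scaling (-0.28). The 5 higher genes lay above all controls on every icKO array. Asns (0.18, limma adjusted p = 0.494) and Eif2ak1 (-0.20, adjusted p = 0.142) were not called. With spike-in scaling Asns was 0.60 and passed (adjusted p = 0.0209).

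The calls differed in how firmly they held. Under each of 20 alternative settings, 9 members kept their call and direction: Tomm5, Tomm40l, Timm21, Timm44, Grpel1, Hspd1, Hspe1, Clpp and Phb. They are also the 9 members called lower with spike-in scaling, so the other 20 lower calls were lost there. The 9 hold 2 genes of the outer membrane translocase, 2 of the motor, both of the chaperonin and 1 each of the TIM23 complex, the proteases and the prohibitins. Neither the small TIM genes nor those of the TIM22 complex are among them. On leaving out each array in turn, 21 of the 30 called members kept their call every time. Where a member had more than 1 bright probe, which was so for 15, all its probes differed in the same direction, with a median gap of 0.06 between them and a largest gap of 0.46 for Grpel1.

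**Figure D5:**
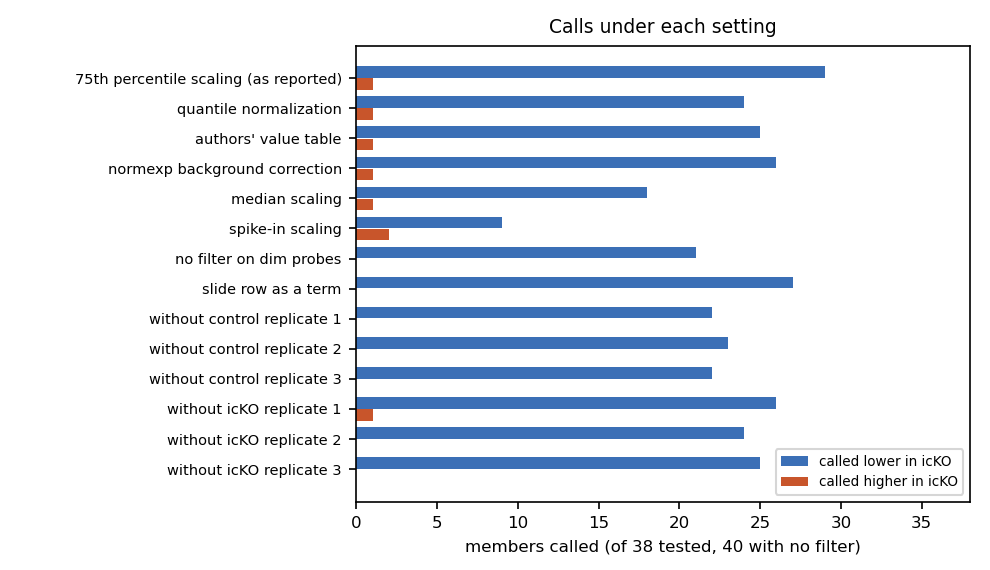
Number of members called lower (blue) and higher (orange) in icKO under different settings, out of 38 tested, or 40 where no filter on dim probes was used. The count lower falls from 29 with 75th percentile scaling to 18 on median scaling and to 9 on spike-in scaling, and lies between 22 and 26 on leaving out 1 array.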

How the data were processed

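Cy3-labelled RNA of 6 ventricles was read on 6 one-colour Agilent arrays of 1 slide, per the labels and the file headers. The authors deposited scanner files with spot intensity from Feature Extraction 11.0.1.1 (version per the file headers, but 9.1 in the submitters' processing notes), background-subtracted within each array and not scaled across them. Linear intensity, uncentred, also fills the authors' deposited value table, with column medians from 18.37 to 18.47 and correlations with the scanner values of 0.9995 or more. How the table was normalized: not given in the sources used here. Each array gave 47.9% to 50.9% of probes well above background and 0 saturated spots. The control arrays had 75th percentile signals of 189, 233 and 215, and the icKO arrays 312, 348 and 292. Replicate number limits the precision.

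The log2 of the deposited processed intensity, less the array's own 75th percentile (control spots excepted), was fitted in R 4.3.3 with limma 3.58.1, using lmFit and eBayes with a group term alone. Outlier-flagged spots were left out, and none belonged to a member. The filter on dim probes asked for a signal well above background on every array of one group or the other, and 26153 of 55681 probes passed. Names came from RefSeq accessions (table of GRCm38.p6). The brightest kept probe stood for a gene, and unnamed probes were tested singly. Of the 22282 features, 132 lacked a value on an array and were fitted on the rest. P-values were Benjamini-Hochberg adjusted over all features, with 0.05 as the threshold. Pairs were tested with exact permutation tests.

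On the slide, control arrays stood in columns 1, 1 and 2 and icKO arrays in 2, 3 and 3, so column and group can hardly be told apart. Rows held both groups and were tried as a term. The labels do not say whether equal replicate numbers pair the samples. Deviations of arrays with equal numbers correlated at -0.05, -0.13 and 0.00, which cannot exclude a pairing. The normexp alternative used median spot signals with an offset of 50, in place of the planned mean signals, which were not used here. The fit was also run on simulated data that held no scaling step, so that run says nothing on the choice of scaling.

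Every member is accounted for by role. By rule, levels on every array are given for both genes of each measured pair, a list of main subunits, the 5 largest falls and every member called against the majority. Ratios of pairs are given as means, with values on every array for 2 pairs. Up to 2 genes each way with the smallest p are named from each other list. Values of other members were added after they were seen. Members, lists and rules were chosen with earlier results of these data known.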

Additional observations from a re-analysis of the deposited data

How the results depend on the processing

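Median and spike-in scaling moved the counts of members and other pathway genes called lower more than the other settings did. Median scaling gave 18 members lower (29 as reported) with a median of -0.39, and spike-in scaling gave 9 lower, 2 higher, a median of -0.12 and 9 other pathway genes lower (43 as reported). Both scalings add the same amount to the members and to all features. The members' median therefore stayed below that of all features by construction. Spike-in scaling turned the sign of Spg7 (0.06), Timm17a (0.12), Tomm7 (0.05), Tead1 (0.02), Mtx1 (0.04), Chchd4 (0.12), Ghitm (0.09), Pitrm1 (0.06) and Lactb (0.13), since it adds 0.42 to every difference. The count of members called higher, 1 as reported (Lonp1), was 0 with no filter on dim probes, with the replicate block and with the slide row as a term, and 0 to 1 on leaving out single arrays. With no filter, 6123 features were called in place of 9975. With the replicate block, 23 members were called lower and 7881 features in all. Whether the same replicate number in both groups marks a shared origin is not stated in the labels. Pairs whose groups did not overlap numbered 8 to 11 under the alternatives (10 as reported). Members called lower numbered 22 to 26 on leaving out single arrays, and 27 with the 75th percentile taken over probe means, an alternative added after seeing the data. The cause of these changes was not tested beyond the construction of each setting. Signal near background limits Tomm20l and Timm8a2, which were not tested.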

Other observations

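Oxa1l, the insertase that places proteins into the inner membrane from the matrix side, was singled out after its values were seen. It read 5.49, 5.51 and 5.47 in controls and 4.74, 4.57 and 5.61 in icKO, so that icKO replicate 3 lay above the controls and the other icKO arrays far below them. Its difference of -0.52 ± 0.27 was not called (limma, Benjamini-Hochberg adjusted p = 0.159). Without icKO replicate 3 it was -0.84 and passed (adjusted p = 0.00641), and with the mean of its probes it passed as well (adjusted p = 0.00836).

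Tomm7 and Timm8a2 each have a probe that was left out as dim. The second Tomm7 probe was well above background on 2 of 3 control and 0 of 3 icKO arrays, reading -3.22, -3.36 and -2.25 in controls and -5.63, -4.25 and -4.17 in icKO. The Timm8a2 probe was well above background on 1 control array only, reading -4.38, -4.25 and -3.28 in controls and -5.66, -6.05 and -5.71 in icKO. Neither was used for a call.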
